A study of Mus musculus with 34 samples.

Results

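The regulators of G-protein signalling (RGS) were described here through Rgs2, Rgs16, Rgs10, Rgs14 and Rgs19, which were 5 of the 6 genes asked for. They were found by gene symbol in the probe-to-gene table of the Affymetrix MG-U74Av2 array. That table lists no probe set with the symbol Rgs1, so Rgs1 was not analysed here. The 5 genes had 10 of the 12488 probe sets, and 8 of these 10 reached a signal of 200 in at least 2 grouped arrays. The other two were dim additional probe sets of Rgs10, with a mean signal of 47.7, and of Rgs19, with a mean of 25.5. Where a gene had several probe sets, the brightest on average is its main one, and the second probe sets of Rgs16, Rgs10 and Rgs19 are set beside it.

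RGS proteins speed up the hydrolysis of GTP by the alpha subunits of heterotrimeric G proteins and so end the signal of a G-protein-coupled receptor. In leukocytes this controls how long a cell answers chemokines, chemoattractants, prostaglandins and nucleotides. Rgs2 acts mainly on the Gq class and Rgs16 on both Gi and Gq. Rgs10 and Rgs19 act on the Gi class, and Rgs10 has been studied in microglia as a brake on inflammatory gene expression. Rgs14 acts on Gi and also binds small G proteins of the Ras family.

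Mouse bone-marrow-derived macrophages (BMDMs), which are macrophages grown from marrow cells with the growth factor CSF-1, were cultured for 7 days and rested for 1 h. Cells of IL-10-/-, IL-6-/- or wild-type genotype then received lipopolysaccharide (LPS, a bacterial cell wall component) at 100 ng/ml with IL-10 at 10 ng/ml, with IL-6 at 2 ng/ml, or alone. RNA was taken at 45 and 180 min, except that the IL-6 arm was measured at 45 min only, and 4 resting arrays received nothing. The 32 grouped arrays fell into 16 groups of 2 arrays, apart from the 4 resting arrays and the IL-6-/- cells with LPS alone, which had 1 array at each time. The titles call the arrays of a group biological replicates, and the number of mice behind them is not given in the sources used here. The labels name no genotype for the resting cells and give L cell conditioned media as their CSF-1 source, where the stimulated cells are labelled mCSF. One array with no genotype in its title and one whose title and treatment protocol give different times entered no comparison.

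The values are MAS5 signals scaled by the authors, with array medians between 158 and 237.3 and correlations between replicates of 0.863 to 0.960. All 10 macrophage markers on the array passed the filter, and their summed signal was 139750 to 200650 in stimulated arrays against 145560 to 182080 in resting arrays. Within this sum single markers moved both ways. Cd14 averaged 42220 in stimulated and 21530 in resting arrays, and Csf1r averaged 20170 and 28690. Summed signals of stromal markers such as Col1a2 and Lox, of which 10 of 11 passed, were 9291 to 16479 in stimulated arrays against 1556 to 4126 in resting arrays. Neutrophil markers, of which 6 of 11 passed, summed to 645 to 4003 in stimulated arrays against 1705 to 3539 in resting arrays, with Ly6g at or below 126.7 in every array. S100a8 had the widest range of these markers, with 71.5 to 3022.3. The signal of Il10 at 45 min was 5858 to 10596 in arrays labelled IL-10-/- against 2412 to 3844 in wild-type arrays. At 180 min of LPS alone it was 1512 to 1532 against 2701 to 3265, and with IL-10 added it was 4634 to 4698 against 4409 to 4512. Il6 was 428 to 1014 in arrays labelled IL-6-/- against 996 to 4568 in wild-type arrays at 180 min, and 618 to 8400 against 209 to 2679 at 45 min. At 45 min neither targeted gene had a lower signal in the arrays labelled as its knockout, and where these probe sets lie relative to the altered part of each gene is not given in the sources used here, so genotypes are those of the labels throughout.

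With LPS, 4 of the 5 genes fell and 1 rose by 180 min in wild-type cells, where 19.4% of all tested probe sets fell and 14.4% rose. Rgs2 fell by 4.12 on the log2 scale, the most of the 5 genes. Rgs10 fell by 1.53 and Rgs14 fell by 1.48. Rgs16 rose by 1.65. Rgs19 fell by 0.89 on its main probe set, and its second one did not pass the test. At 45 min Rgs19 alone had passed the test when each gene was read by its main probe set, and its second one again did not pass.

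Each change is a difference of log2(signal + 50), tested with limma over all 8224 probe sets that passed the filter, and a change passed at a Benjamini-Hochberg adjusted p under 0.05. In the wild type, 33.8% of all tested probe sets passed between 180 min of LPS and resting cells, and 16.7% between 45 min and resting cells. All 5 genes passed at 180 min and 1 of 5 at 45 min, where 4 of 5 had an unadjusted p under 0.05. The median change of the 5 genes was -1.48 at 180 min, against -0.09 over all tested probe sets. In bulk RNA, fewer cells that express a gene and less of its RNA per cell cannot be told apart. The stromal marker sums differed between the stimulated and resting arrays as given above. Neutrophil marker sums with LPS alone in the wild type were 1162 to 1274 at 45 min and 1240 to 1416 at 180 min. Both ranges lay below the 1705 to 3539 of resting arrays. The part of the stromal and neutrophil marker sums in these results was not tested. The resting cells also had a different CSF-1 label, which cannot be told apart from the effect of LPS in these 2 comparisons.

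**Figure D1:**
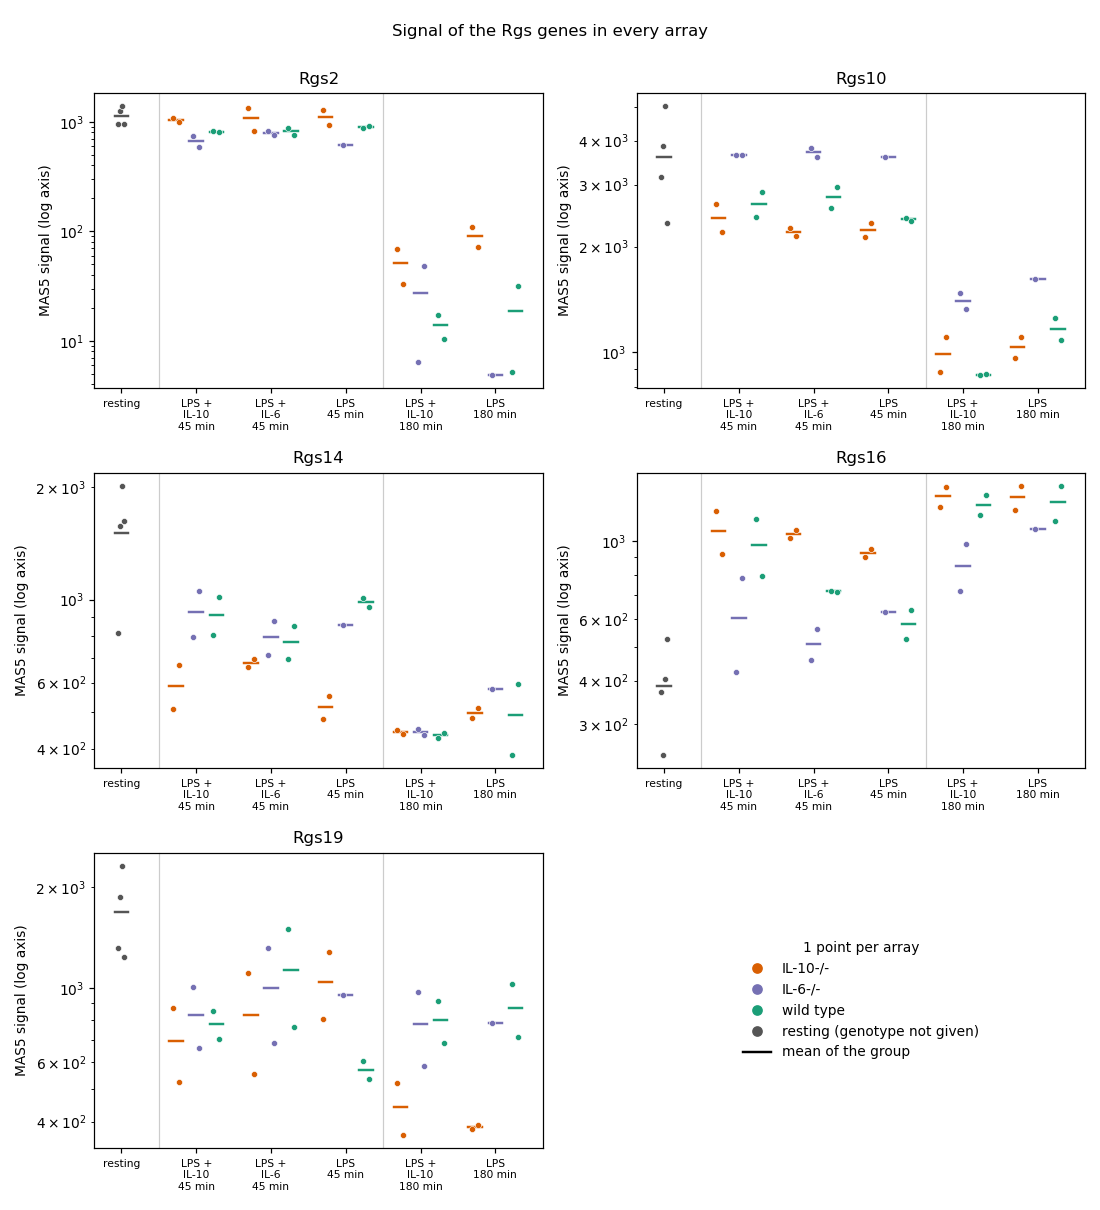
MAS5 signal (log axis) of each Rgs gene on its main probe set, with 1 point per array and a line at the mean of each of the 16 groups, coloured by genotype and ordered from resting cells through 45 min to 180 min. Rgs2 lies at or above 592.3 in all resting and 45 min arrays and at or below 109.8 in all 180 min arrays, while Rgs16 has its lowest group mean in resting cells.

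Rgs2 signals were 946.7, 1245.9, 1390.3 and 959.8 in resting cells. In wild-type cells with LPS they were 878.3 and 916.7 at 45 min and 5.2 and 31.9 at 180 min. Both 180 min arrays lay far below every resting and 45 min array, and below the median signal of any array. Against resting cells the log2 change was -4.12 ± 0.26 (SE, n = 2 against 4, limma adjusted p = 4.81e-12), which is 17.4-fold lower on the scale of signal plus 50. At 45 min the change was -0.31 (95% interval -0.84 to 0.22, limma adjusted p = 0.451), although both wild-type arrays lay below all 4 resting arrays.

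The fall of Rgs2 was also present between the times. Between 180 and 45 min of LPS in the wild type, 13.9% of tested probe sets and 4 of the 5 genes passed, and Rgs2 changed by -3.82 ± 0.30 (SE, n = 2 each, limma adjusted p = 1.1e-09). In arrays labelled IL-10-/-, 17.1% of probe sets and 3 of 5 genes passed. Rgs2 there had 109.8 and 72.5 at 180 min, against 1271.9 and 930.1 at 45 min, a change of -3.02 ± 0.30 (SE, n = 2 each, limma adjusted p = 5.37e-08). With IL-10 added, as the mean of the 3 genotypes, 32.8% of probe sets and 3 of 5 genes passed, and Rgs2 changed by -3.49 ± 0.17 (SE, n = 6 each, limma adjusted p = 4.34e-14). Over all genotypes and arms, the 11 arrays at 180 min had a lowest, median and highest Rgs2 signal of 4.9, 31.9 and 109.8, and the 17 arrays at 45 min had 592.3, 830 and 1343.5. The times did not overlap in any genotype.

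**Figure D2:**
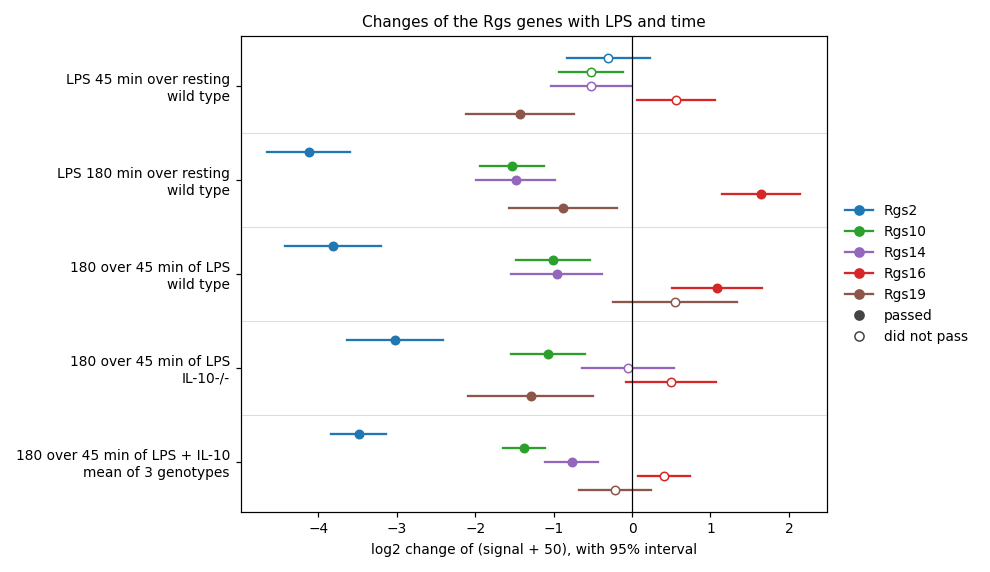
Log2 change of (signal + 50) of each Rgs gene with its 95% interval in 5 comparisons of time and LPS, with filled points where the limma adjusted p was under 0.05. Rgs2 has the largest fall in the 4 comparisons that involve 180 min, and Rgs16 has positive changes in all 5.

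Rgs16 moved the other way from Rgs2. Its signals were 370.2, 245.7, 404.7 and 527.2 in resting cells. In wild-type cells with LPS they were 525.4 and 634.5 at 45 min and 1145.2 and 1433.2 at 180 min. The 180 min arrays lay above all resting and 45 min LPS arrays, while 1 array at 45 min lay just below the highest resting array. The change at 180 min was 1.65 ± 0.24 (SE, n = 2 against 4, limma adjusted p = 7.88e-06), or 3.13-fold higher on the scale of signal plus 50. Its second probe set changed by 1.94 ± 0.28 in the same comparison (SE, limma adjusted p = 5.7e-06).

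At 45 min the probe sets of Rgs16 differed in their call. The main one changed by 0.56 (limma adjusted p = 0.113), and it passed without the fourth resting array (limma adjusted p = 0.0401). The second one had signals of 246.3 and 300.8 against 32.5 to 145.7 in resting cells, and rose by 1.31 ± 0.28 (SE, limma adjusted p = 0.00177). Both had positive changes, and the resting signals of the second one lay below the median of every array. Between 180 and 45 min of LPS in the wild type the main probe set rose by 1.09 ± 0.28 (SE, n = 2 each, limma adjusted p = 0.00877), and the second one changed by 0.63 (limma adjusted p = 0.221). The call of the main probe set was lost without the first 45 min array (limma adjusted p = 0.0941) or the second 180 min array (limma adjusted p = 0.0989). In arrays labelled IL-10-/- the main probe set had 1231 and 1436.2 at 180 min, against 900.8 and 951 at 45 min. That change was 0.50 (95% interval -0.07 to 1.07, limma adjusted p = 0.243), and the second probe set passed with 0.92 (limma adjusted p = 0.0479). With IL-10 added the main probe set changed by 0.41 ± 0.16 (SE, n = 6 each, limma adjusted p = 0.056).

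The sequences upstream of Rgs2 and Rgs16 are shown because they had the largest fall and the largest rise of the 5 genes, and both lie on chromosome 1. They are the 250 bases before the annotated start in RefSeq's table for GRCm38.p6, 5′ to 3′ on the strand of the gene, which is the minus strand at chr1:144004150-144004399 for Rgs2 and the plus strand at chr1:153740103-153740352 for Rgs16. Capitals mark a match of a searched motif.
Rgs2: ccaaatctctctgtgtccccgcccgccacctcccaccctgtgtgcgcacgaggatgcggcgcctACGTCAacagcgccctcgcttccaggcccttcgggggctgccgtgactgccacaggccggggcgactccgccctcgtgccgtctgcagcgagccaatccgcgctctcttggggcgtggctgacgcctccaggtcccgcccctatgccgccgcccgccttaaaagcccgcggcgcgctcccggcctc
Rgs16: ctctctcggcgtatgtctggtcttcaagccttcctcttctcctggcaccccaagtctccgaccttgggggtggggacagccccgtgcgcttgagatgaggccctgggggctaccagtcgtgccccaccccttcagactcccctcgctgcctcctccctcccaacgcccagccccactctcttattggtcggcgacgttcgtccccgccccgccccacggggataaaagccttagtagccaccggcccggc
The motifs searched on both strands were the core of the cyclic AMP response element (ACGTCA), the AP-1 site (TGANTCA), the interferon-activated GAS element (TTCNNNGAA) and the kappaB consensus. Rgs2 holds 1 match, to the cyclic AMP response element core, at -186 to -181 from the start, and 6.47% of 32851 promoter windows of this length hold that motif. Rgs16 holds no match of these letters in this window. The AP-1, GAS and kappaB motifs occur in 6.75%, 7.02% and 3.9% of the windows. The share of G and C is 72.4% for Rgs2 and 66.4% for Rgs16, against a median of 52.4% over all windows. A match of letters is a description of the window and was not tested for binding.

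Rgs10, the Gi-class regulator studied in microglia, had signals of 3155.1, 3872.7, 5013.6 and 2333.6 in resting cells. In wild-type cells with LPS they were 2414.7 and 2368 at 45 min and 1250.1 and 1086 at 180 min. The 180 min arrays lay below all others of these, and the 45 min arrays lay near the lowest resting array. The change at 180 min against resting cells was -1.53 ± 0.20 (SE, n = 2 against 4, limma adjusted p = 1.29e-06), and its second probe set fell by 0.90 (limma adjusted p = 0.000493). At 45 min the change was -0.52 (95% interval -0.93 to -0.12, limma adjusted p = 0.0701), while the second probe set gave 0.09. The name of the second probe set carries Affymetrix's f mark, for a family of similar sequences. Whether all its probes are specific to Rgs10 was not tested. Without the fourth resting array, the lowest one, Rgs10 passed at 45 min (limma adjusted p = 0.00469).

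Rgs10 fell between 45 and 180 min in the wild type, in arrays labelled IL-10-/- and with IL-10 added. It changed by -1.01 ± 0.23 in the wild type (SE, n = 2 each, limma adjusted p = 0.00319) and by -1.07 ± 0.23 in arrays labelled IL-10-/- (SE, n = 2 each, limma adjusted p = 0.0015). With IL-10 added it changed by -1.38 ± 0.13 as the mean of 3 genotypes (SE, n = 6 each, limma adjusted p = 7.96e-09). The second probe set passed in each of these 3 comparisons, with changes between -1.24 and -0.99. All 11 arrays at 180 min, with 864.1 to 1620.4, lay below all 17 arrays at 45 min, with 2126 to 3816.4.

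Rgs14 signals were 815.6, 1573.1, 2012 and 1619.1 in resting cells, so that 1 resting array stood well below the other three. In wild-type cells with LPS they were 1013.2 and 955.1 at 45 min and 385.2 and 595.7 at 180 min. The 180 min arrays lay below all resting arrays, and the 45 min arrays lay between the lowest resting array and the rest. The change at 180 min was -1.48 ± 0.25 (SE, n = 2 against 4, limma adjusted p = 3.95e-05). At 45 min it was -0.52 (limma adjusted p = 0.153), and without the lowest resting array it passed with -0.78 (limma adjusted p = 0.00822). Between 180 and 45 min in the wild type it changed by -0.96 ± 0.28 (SE, n = 2 each, limma adjusted p = 0.0233), a call that was lost without the first 45 min array, the second 45 min array or the first 180 min array, with limma adjusted p of 0.0822 to 0.256.

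In arrays labelled IL-10-/-, Rgs14 did not differ between the times beyond the spread. It had 484 and 511.9 at 180 min of LPS, against 480.7 and 554 at 45 min, with overlapping arrays and a change of -0.05 (95% interval -0.63 to 0.54, limma adjusted p = 0.933). The difference of this time course between IL-10-/- and wild type was 0.92 (95% interval 0.09 to 1.74, limma adjusted p = 0.391), where 1.12% of all probe sets and 0 of the 5 genes passed and 2 of the 5 had an unadjusted p under 0.05. With IL-10 added, Rgs14 changed by -0.77 ± 0.16 between 180 and 45 min as the mean of the 3 genotypes (SE, n = 6 each, limma adjusted p = 0.000616). The group means behind this were 442.5 at 180 min against 588 at 45 min in arrays labelled IL-10-/-. They were 442.1 against 924.1 in arrays labelled IL-6-/- and 433.9 against 910.9 in wild-type arrays.

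Rgs19 gave different answers by probe set. The name of its main probe set carries Affymetrix's mark for a design that dropped some probe selection rules, and that of the second one the mark for probes shared by a group of transcripts. On the main one, signals were 1316.4, 1859.3, 2306.4 and 1231.5 in resting cells. In wild-type cells with LPS they were 606.4 and 535.3 at 45 min and 1029.3 and 712.3 at 180 min. All 4 stimulated arrays lay below all 4 resting arrays. The change was -1.43 ± 0.33 at 45 min (SE, n = 2 against 4, limma adjusted p = 0.00398) and -0.89 ± 0.33 at 180 min (SE, n = 2 against 4, limma adjusted p = 0.0424). The 45 min call was lost without the second of the 45 min arrays (limma adjusted p = 0.0574). The 180 min call was lost without the second or the third resting array or either 180 min array, and also without the signal filter, without the intensity trend or with the mean of the probe sets (limma adjusted p of 0.058 to 0.323). On the second probe set, the changes were -0.35 (limma adjusted p = 0.264) at 45 min and -0.00 (95% interval -0.44 to 0.43, limma adjusted p = 0.99) at 180 min. All grouped arrays of this second probe set lay between 377.9 and 878.8, and each group overlapped with the next one in the order of the 16 means.

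The later change of Rgs19 also rested on the main probe set. Between 180 and 45 min of LPS it was 0.55 (limma adjusted p = 0.408) in the wild type. In arrays labelled IL-10-/- it had 380.8 and 390.5 at 180 min, against 809.5 and 1279.4 at 45 min, a change of -1.30 ± 0.38 (SE, n = 2 each, limma adjusted p = 0.0204). This call was lost without the second 45 min array or either 180 min array (limma adjusted p of 0.0903 to 0.215) and with the mean of the probe sets (limma adjusted p = 0.144). The second probe set changed by -0.13 there (limma adjusted p = 0.775). The difference between these 2 time courses was -1.84 ± 0.54 on the main probe set (SE, limma adjusted p = 0.138) and -0.48 on the second one (limma adjusted p = 0.656). With the replicate number as a block, the difference on the main probe set passed (limma adjusted p = 0.0334).

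**Figure D3:**
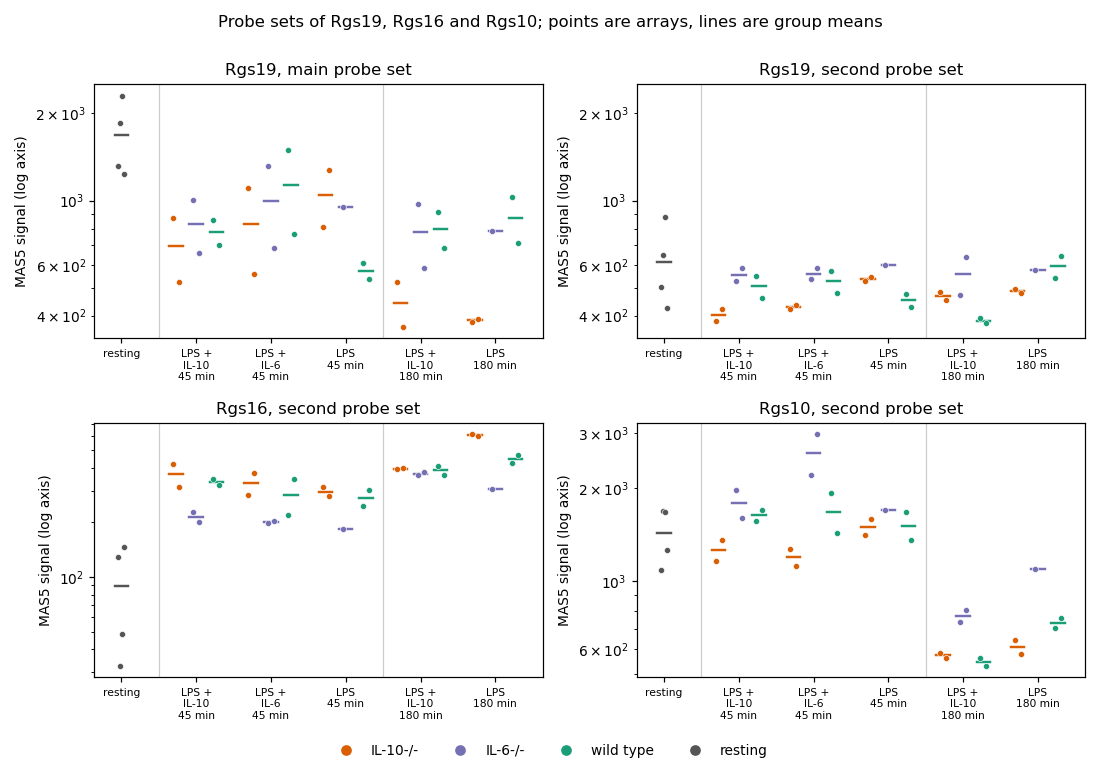
MAS5 signal (log axis) of both probe sets of Rgs19 on a shared scale, and of the second probe sets of Rgs16 and Rgs10, with 1 point per array and a line at each group mean. The main Rgs19 probe set spans 366.1 to 2306.4 and the second one 377.9 to 878.8, and the second probe sets of Rgs16 and Rgs10 move in the same directions as the main ones at 180 min.

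The question of the series was what IL-10 or IL-6 adds to LPS, and for the RGS genes no such change passed the test on the main probe sets. In IL-6-/- cells each such change rests on 1 array with LPS alone, which also enters the means of the 3 genotypes. With IL-10 at 45 min, 0 of 5 genes passed in IL-10-/-, IL-6-/- and wild-type cells, where 0.547%, 0.328% and 0.401% of all probe sets passed, and 0, 0 and 1 of the genes had an unadjusted p under 0.05. At 180 min 0 of 5 passed as well, against 3.54%, 0.207% and 0.134% of all probe sets, with 0 of the genes at an unadjusted p under 0.05 in each genotype. The counts in this paragraph read each gene by its main probe set. In the wild type at 180 min, the second Rgs19 probe set had 391.7 and 377.9 with IL-10 against 540.4 and 643.1 without it. In the knockouts these groups overlapped. The second Rgs16 probe set had 395.6 and 397.3 against 612.6 and 599.2 in arrays labelled IL-10-/-. It had 411.5 and 366.5 against 426.3 and 470.4 in the wild type, and 363.4 and 378.3 against 304.7 in arrays labelled IL-6-/-. As the mean of the 3 genotypes, 0 of 5 passed at 45 min against 1.03% of probe sets, and 0 of 5 at 180 min against 3.82%, with 0 of the genes at an unadjusted p under 0.05 at either time.

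A call that was not made does not show that IL-10 had no effect. At 180 min, as the mean of the 3 genotypes, the 95% intervals of the log2 change ran from -0.42 to 0.34 for Rgs2, -0.48 to 0.24 for Rgs16, -0.52 to 0.07 for Rgs10, -0.58 to 0.15 for Rgs14 and -0.49 to 0.50 for Rgs19. The Rgs2 signals behind this were 17.4 and 10.5 with IL-10 against 5.2 and 31.9 with LPS alone in the wild type, and 69 and 33.3 against 109.8 and 72.5 in arrays labelled IL-10-/-. All of these signals lay below the median of every array. For Rgs10 the wild-type signals at 180 min were 864.1 and 866.4 with IL-10 against 1250.1 and 1086 with LPS alone. These groups did not overlap, with a change of -0.41 (95% interval -0.88 to 0.06, limma adjusted p = 0.91), and 0.134% of all probe sets passed.

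At 45 min the IL-10 change with an unadjusted p under 0.05 was that of Rgs16 in the wild type. Its signals were 1158.6 and 795.1 with IL-10 against 525.4 and 634.5 with LPS alone, a change of 0.69 (95% interval 0.11 to 1.26, unadjusted p = 0.0211 and limma adjusted p = 0.919). The second Rgs16 probe set gave 0.25 (limma adjusted p = 1). Neither the IL-10 response at 180 min compared between IL-10-/- and wild type (0.559% of probe sets passed) nor its difference between 180 and 45 min (1.18% passed) gave a call or an unadjusted p under 0.05 for any of the 5 genes.

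With IL-6 at 45 min, 0 of 5 genes passed in IL-10-/-, IL-6-/- and wild-type cells, where 0.0365%, 0.073% and 0.219% of probe sets passed. As the mean of the 3 genotypes it was 0 of 5 against 0.547% of probe sets. On the main probe sets, the gene with an unadjusted p under 0.05 was Rgs19 in the wild type. It had 1497.8 and 765.1 with IL-6 against 606.4 and 535.3 with LPS alone. That change was 0.86 (95% interval 0.06 to 1.65, unadjusted p = 0.0354 and limma adjusted p = 0.773), and the second Rgs19 probe set gave 0.19 (limma adjusted p = 0.957). The second Rgs10 probe set had 2203.3 and 2979.2 with IL-6 against 1692.3 with LPS alone in arrays labelled IL-6-/-. In arrays labelled IL-10-/- it was lower with IL-6, with 1269 and 1113.5 against 1408.3 and 1582.6. Set against each other at 45 min, IL-10 and IL-6 gave 0 of 5 calls, where 0.219% of probe sets passed and 0 of the genes had an unadjusted p under 0.05. The 95% intervals of IL-10 minus IL-6 were -0.44 to 0.26 for Rgs2, -0.14 to 0.53 for Rgs16, -0.26 to 0.28 for Rgs10, -0.26 to 0.41 for Rgs14 and -0.74 to 0.17 for Rgs19.

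**Figure D4:**
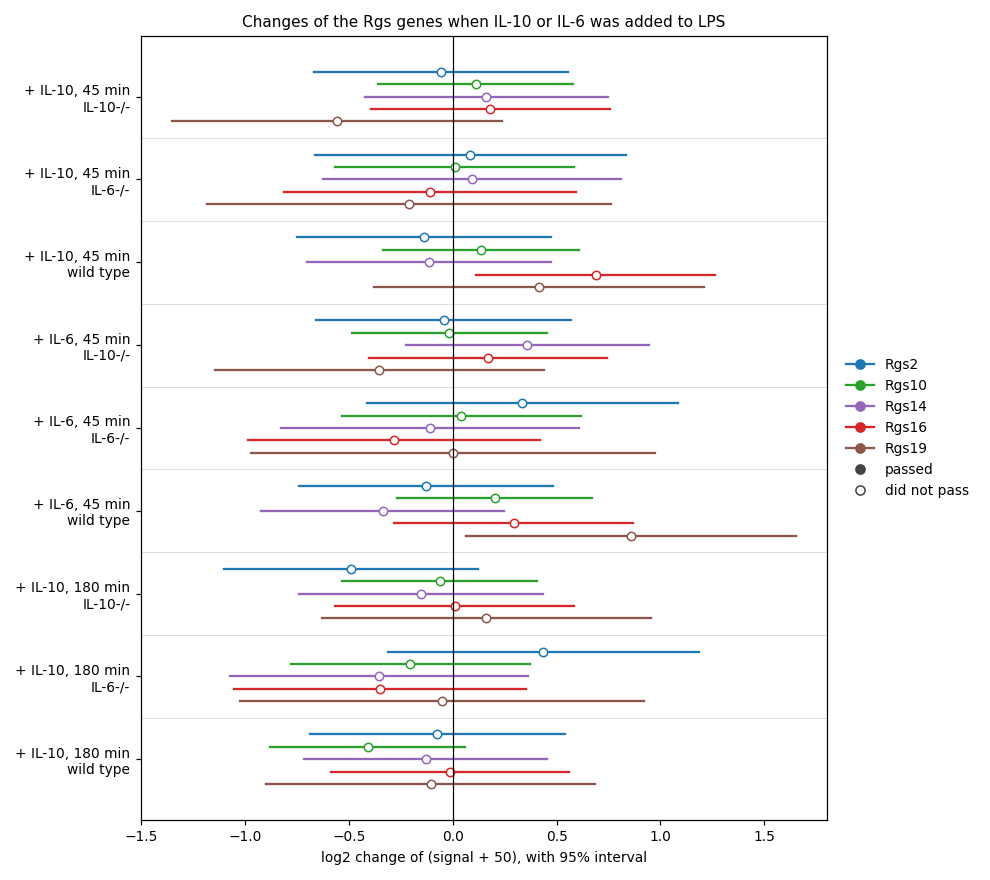
Log2 change of (signal + 50) of each Rgs gene when IL-10 or IL-6 was added to LPS, with its 95% interval, in each genotype and time; open points did not pass the limma test. All 45 points are open, and the intervals that leave out 0 are those of Rgs16 with IL-10 and Rgs19 with IL-6 in the wild type at 45 min.

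Between genotypes under LPS alone, 0 of 5 genes passed in each of the 4 comparisons. For IL-10-/- against wild type, 2.87% of probe sets passed at 180 min and 0.377% at 45 min, and 2 of the 5 genes had an unadjusted p under 0.05 at each time. For IL-6-/- against wild type, 0.182% passed at 180 min and 0% at 45 min, with 0 and 1 of the genes at an unadjusted p under 0.05, and these tests rest on 1 IL-6-/- array at each time, which was assumed to vary as the other groups did. The stromal marker sums also differed by genotype, with 13132 to 16479 in arrays labelled IL-10-/-, 9291 to 10072 in arrays labelled IL-6-/- and 11781 to 14368 in wild-type arrays. Endothelial marker sums did not overlap between IL-10-/- and wild type at either time, with 643 to 781 against 901 to 1193 at 180 min and 852 to 1143 against 1390 to 1671 at 45 min. Macrophage marker sums at 180 min were 160220 to 172930 in arrays labelled IL-10-/- and 152640 to 181980 in arrays labelled IL-6-/-. Both ranges lay above the 139750 to 150730 of wild-type arrays, while they overlapped with each other. The part of these marker sums in the genotype differences below was not tested.

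Rgs2 at 180 min of LPS had 109.8 and 72.5 in arrays labelled IL-10-/-, against 5.2 and 31.9 in wild-type arrays, which did not overlap. The change was 1.06 ± 0.30 (SE, n = 2 each, limma adjusted p = 0.0536), which did not pass. With 10 in place of 50 added before the logarithm the change was 1.98 and passed (limma adjusted p = 0.0175). With IL-10 supplied it was 0.64 (limma adjusted p = 0.758), where 0.219% of probe sets and 0 of 5 genes passed and 1 gene had an unadjusted p under 0.05. A comparison added after the data were seen took the mean of both arms at 180 min, in which 2.63% of probe sets and 1 of 5 genes passed. There Rgs2 was higher by 0.85 ± 0.21 (SE, n = 4 each, limma adjusted p = 0.0257), and all 4 arrays labelled IL-10-/-, with 33.3 to 109.8, lay above all 4 wild-type arrays, with 5.2 to 31.9. In 4 of the 8 fits that leave out 1 of these arrays the call was lost (limma adjusted p of 0.111 to 0.162), the array left out being the first wild-type array with LPS, the second wild-type array with IL-10, or the first IL-10-/- array of each arm. Adding 200 in place of 50 gave 0.32 (limma adjusted p = 0.321). All 8 signals lay below the median of every array.

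For Rgs14 and Rgs10 no difference between genotypes passed the test, although some genotypes did not overlap on the main probe set. How many of all probe sets lack such overlap was not counted. At 45 min Rgs14 had 480.7 to 694.1 in the 6 arrays labelled IL-10-/-, against 694.8 to 1016.5 in the 6 wild-type arrays, so that the highest IL-10-/- array lay just below the lowest wild-type array. As the mean of the 3 arms, in which 1.29% of probe sets and 0 of 5 genes passed and 2 of 5 had an unadjusted p under 0.05, the change was -0.54 ± 0.16 (SE, n = 6 each, limma adjusted p = 0.124). Rgs10 at 45 min had 3604.9 to 3816.4 in the 5 arrays labelled IL-6-/-, against 2368 to 2961 in the 6 wild-type arrays. At 180 min it had 1328.6 to 1620.4 in 3 arrays labelled IL-6-/-, against 864.1 to 1250.1 in 4 wild-type arrays. The genotypes did not overlap at either time on this probe set, and they overlapped at both times on the second one. As means over the arms the changes were 0.49 ± 0.14 at 45 min (SE, limma adjusted p = 0.0728, with 2.25% of probe sets and 0 of 5 genes passing) and 0.56 ± 0.18 at 180 min (SE, limma adjusted p = 0.174, with 1.08% of probe sets and 0 of 5 genes passing). Each of these 2 means had 1 gene, Rgs10, at an unadjusted p under 0.05.

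Rgs19 at 180 min of LPS had 380.8 and 390.5 in arrays labelled IL-10-/-, against 1029.3 and 712.3 in wild-type arrays. The change of the main probe set was -1.06 ± 0.38 (SE, n = 2 each, limma adjusted p = 0.188), and -0.92 ± 0.27 as the mean of both arms (SE, n = 4 each, limma adjusted p = 0.0735). The second probe set gave -0.25 (limma adjusted p = 0.783) and -0.00 (limma adjusted p = 0.999). With the replicate number as a block, the mean of both arms passed on the main probe set (limma adjusted p = 0.0177). Rgs16 overlapped between these genotypes at 180 min, with 1231 and 1436.2 in arrays labelled IL-10-/- against 1145.2 and 1433.2 in wild-type arrays, and the 95% interval of the change ran from -0.52 to 0.63. At 45 min of LPS it had 900.8 and 951 in arrays labelled IL-10-/- against 525.4 and 634.5 in wild-type arrays. These did not overlap, with a change of 0.64 ± 0.28 (SE, n = 2 each, limma adjusted p = 0.556), and the second probe set gave 0.10. The 3 arrays labelled IL-6-/- at 180 min, with 718.6 to 1086.3, lay below the 4 wild-type arrays, with 1145.2 to 1433.2. As the mean of both arms that change was -0.40 ± 0.22 (SE, limma adjusted p = 0.596), and the genotypes overlapped on the second probe set.

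Across the 16 group means, all 45 min means lay above all 180 min means for Rgs2 and Rgs10, and the times were mixed for the other genes. Resting cells ranked first for Rgs2. For Rgs10 they ranked below the IL-6-/- groups at 45 min, with 3594 against 3607 to 3711. Of the 15 pairs of neighbours in the order, 9 overlapped for Rgs2, 13 for Rgs16, 9 for Rgs10, 13 for Rgs14 and 14 for the main probe set of Rgs19. For Rgs2 the lowest level was 4.9 in the single IL-6-/- array with LPS at 180 min, and the highest was 1136 ± 219 in resting cells (SD, n = 4). For Rgs16 the highest was 1341 ± 122 in IL-10-/- cells with LPS and IL-10 at 180 min (SD, n = 2), and the lowest was 387 ± 116 in resting cells (SD, n = 4). For Rgs10 the lowest was 865 ± 1.6 in wild-type cells with LPS and IL-10 at 180 min, and the highest was 3711 ± 150 in IL-6-/- cells with LPS and IL-6 at 45 min (SD, n = 2 each). For Rgs14 the lowest was 434 ± 8.6 in wild-type cells with LPS and IL-10 at 180 min (SD, n = 2), and the highest was 1505 ± 500 in resting cells (SD, n = 4). For Rgs19 the lowest was 386 ± 6.9 in IL-10-/- cells with LPS at 180 min (SD, n = 2), and the highest was 1678 ± 503 in resting cells (SD, n = 4).

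The genes with the most similar pattern were found by Pearson's correlation of the 16 group means, which share arrays and scaling and are dominated by the difference between times. For Rgs2 they were Apobec1 (r = 0.994), Cdk18 (0.982) and the chemokine receptor gene Cxcr4 (0.981). For Rgs10 they were the G-protein gamma subunit gene Gng2 (0.971), Idh1 (0.971) and Sgpp1 (0.970). For Rgs14 they were Unc119 (0.928), Tpgs1 (0.922) and Atp13a2 (0.921). For Rgs16 they were Tgfb1i1 (0.892), another regulator gene Rgs3 (0.890) and Stk40 (0.889). For Rgs19 they were Eif1b (0.865), Trim28 (0.859) and Tbcb (0.855). Among the 5 genes themselves the largest positive correlation was between Rgs2 and Rgs10 (0.841) and the most negative one between Rgs14 and Rgs16 (-0.853), over the same 16 means.

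The other genes of the pathway changed in both directions with LPS. At 180 min in the wild type against resting cells, 12 of the 69 listed genes that were tested rose and 19 fell, or 44.9% in all, where 14.4% of all probe sets rose, 19.4% fell and 33.8% passed in either direction. Of 13 further RGS genes listed, 8 had a probe set and 4 were tested, and 0 of these 4 passed at 180 or 45 min of LPS against resting cells. Their mean signals were 868 for Rgs3, 207 for Rgs8, 93.4 for Rgs11 and 62.6 for Rgs7, against array medians of 158 to 237.3. Only Rgs3 had a mean above all array medians. Of 27 tested G-protein-coupled receptor genes of leukocytes, 8 rose and 7 fell at 180 min of LPS in wild-type cells against resting cells, and their median change was -0.08 against -0.09 over all tested probe sets. The nucleotide receptor gene P2ry2 rose most, by 3.43, with a mean signal of 933 at 180 min of LPS against 45.6 in resting cells (limma adjusted p = 8.12e-07). Cxcr4, the receptor for the chemokine Cxcl12, fell by 4.87, the most of the list, with a mean signal of 40.3 at 180 min of LPS against 2623 in resting cells (limma adjusted p = 1.1e-12).

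Of 19 tested G-protein subunit genes, 2 rose and 5 fell in this comparison, which is close to the 33.8% of all probe sets. Gng12, a gamma subunit, rose by 1.20 (limma adjusted p = 2.38e-05), and Gna12, an alpha subunit, fell by 1.98 (limma adjusted p = 1.08e-06). Gnai2, the alpha subunit of the Gi class through which most chemokine receptors signal, fell by 0.64 (limma adjusted p = 0.000632) and is named here after its values were seen. Of 3 tested receptor kinase and arrestin genes, Grk5 rose by 0.99 (limma adjusted p = 0.00128) and Arrb1 fell by 1.57 (limma adjusted p = 6.87e-06). Of 16 tested effector genes, 1 rose and 6 fell, and the phosphodiesterase gene Pde4b rose by 1.66 (limma adjusted p = 8.08e-05).

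Added IL-10 at 180 min, as the mean of the 3 genotypes, changed 4 of the 69 other pathway genes tested, or 5.8% where 3.82% of all probe sets passed, with 0 of 4 further RGS genes among them. The shares are close, so the count is not a result about the pathway. P2ry2 rose by 1.08 (limma adjusted p = 0.0498), the small G-protein gene Rac2 rose by 0.47 (limma adjusted p = 0.0412), the proton-sensing receptor gene Gpr65 fell by 0.93 (limma adjusted p = 0.0166) and Gna12 fell by 0.69 (limma adjusted p = 0.0293). Among the neutrophil markers, S100a8 reached 3022.3 and each of the others at most 610.3 over all grouped arrays. In resting arrays S100a8 averaged 538.2, where the sums were 1705 to 3539, and its share of each sum is not given here. The summed neutrophil marker signal at 180 min also differed with IL-10. It was 2463 to 2494 with IL-10 against 1320 to 1439 with LPS alone in arrays labelled IL-10-/-, 3676 to 4003 against 1408 in arrays labelled IL-6-/-, and 1977 to 2002 against 1240 to 1416 in wild-type arrays, and its part in these changes was not tested. In arrays labelled IL-10-/- against wild type at 180 min of LPS, P2ry2 fell by 1.97, the receptor kinase gene Grk6 fell by 1.96 and Rac2 fell by 1.07 (limma adjusted p = 0.0243, 0.0229 and 0.00315), and these were 3 of the 69 listed genes, or 4.35%, where 2.87% of all probe sets passed.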

How the data were processed

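Signal was measured on 34 Affymetrix MG-U74Av2 arrays, of which 32 entered 16 groups taken from the titles, since some treatment labels leave out the added cytokine. The values deposited by the authors are linear intensity values, which the submitters' processing notes attribute to MAS5 with no version. Their 2% trimmed mean was 500.29 to 500.4 on every array, so they were not scaled again. Gene symbols came from the platform's table. The 66 control probe sets were left out, and 8224 of 12422 probe sets (6070 genes) reached 200 on 2 or more grouped arrays. Limma 3.58.1 in R 4.3.3 fitted 16 group means to log2(signal + 50) with lmFit and eBayes with an intensity trend (16 residual and 7.575 prior degrees of freedom), and was tested on simulated data. P-values are 2-sided, with Benjamini-Hochberg adjustment across all 8224 tested, and measure the spread between these arrays. There were 25 comparisons and 6 added after the data were seen. The number of arrays limits the precision, and adding 50 makes fold changes of low signals smaller. No detection calls were used here, so a low signal is not called absent. No 2 arrays were identical. Deviations of same-numbered arrays correlated above 0.1 in 7 of 10 pairs of groups in the wild type (0.0204 to 0.299), 3 of 10 in IL-10-/- (0.038 to 0.207) and 3 of 3 in IL-6-/- (0.148 to 0.441). All of these correlations were positive. The labels tie no number to a mouse or batch, so the main fit has no block, and the fit with a block is given as an alternative. Within IL-6-/- the block changed no call of an RGS gene.

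The RGS genes and the pathway and marker lists were chosen with earlier results of these data known. Named genes are the RGS genes, the 3 genes most correlated with each, and the largest rise and fall of each list, of which 1 is not reported here. Marker lists of lymphocytes, mast and erythroid cells and endothelial cells were also summed, with 1131 to 1990, 1199 to 3058 and 643 to 1671 in stimulated arrays, against 1121 to 2005, 1192 to 1976 and 690 to 2085 in resting arrays. Promoter windows came from RefSeq's table for GRCm38.p6, which had entries for 4 of the 5 genes and none for Rgs14. Alternatives were an added constant of 10 or 200, no filter or a filter of 500, quantile normalization, no intensity trend, the replicate number as a block, the mean of a gene's probe sets, and leaving out each array.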

Additional observations from a re-analysis of the deposited data

Results flagged for a closer look

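The 2 arrays outside the groups had signals above all 4 resting arrays for some Rgs probe sets. The array with no genotype in its title had 762.6 for Rgs16 on its main probe set and 209.3 on its second, and 1838.6 for Rgs10 on its second. The array with conflicting times had 969.4 for Rgs16 on its main probe set and 291.5 on its second, and 48.4 for Rgs19 on the third, dim probe set that did not pass the filter. For Rgs2 these arrays had 650.7 and 20.9.

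Rgs14 with IL-6 at 45 min moved in opposite directions by genotype, with every array labelled IL-10-/- above those with LPS alone (log2 change 0.36) and every wild-type array below (log2 change -0.34). The difference between them, tested after the data were seen, was 0.70 ± 0.40 (SE, limma adjusted p = 0.996), where 0% of probe sets passed. Rgs19 on its main probe set between 180 and 45 min of LPS changed by -1.30 in arrays labelled IL-10-/- and by 0.55 in wild-type arrays, without overlap of the times in either genotype. The difference did not pass the test (-1.84 ± 0.54 SE, limma adjusted p = 0.138), and it passed with the replicate number as a block (limma adjusted p = 0.0334).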

How the results depend on the processing

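Of 2265 changes of single RGS genes under alternatives, 0 reversed a call, 25 lost one and 19 gained one. Of 453 counts of genes passing, 18 moved by over 1.5 times. For LPS at 45 min against resting cells, 1 gene passed, against 2 with the mean of all probe sets and 0 with Rgs19 by its second probe set, an alternative chosen after seeing the data. Leaving out 1 array gave 0 to 3 there, with 0 without the second wild-type LPS array and 3 without the fourth resting array. For 180 against 45 min of LPS in the wild type, 4 genes passed, and 2 to 3 without 1 array, with 2 without the first 45 min array. For IL-10-/- against wild type at 180 min of LPS, 0 passed, and 1 passed, Rgs2, with 10 added, with a filter of 500, with quantile normalization, with the mean of probe sets and with the replicate block (adjusted p of 0.0175 to 0.0483), while Rgs2 had up to 0.414 under the other alternatives. As the mean of both arms at 180 min 1 passed, against 0 with 200 added and 0 to 1 without 1 array. Rgs19 at 180 min of LPS against resting cells lost its call without a filter, without a trend, with the mean of its probe sets or without 1 of 4 arrays (adjusted p of 0.058 to 0.323).

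The fit with the replicate block moved no count of calls over all probe sets by over 1.5 times in the 25 planned comparisons, and among the added ones it moved that of IL-6-/- against wild type as the mean of 3 arms at 45 min, with 321 calls against 185. With the block, 2 RGS genes, not 1, passed in the mean of both arms at 180 min and 1, not 0, in the difference of time courses between IL-10-/- and wild type, the added gene being Rgs19 on its main probe set (adjusted p = 0.0177 and 0.0334). Rgs16 also passed between 180 and 45 min with IL-10 added (adjusted p = 0.037), and the block ended no call of the 5 genes. Groups of 2 arrays limit what can be detected, and at 180 min the signals of Rgs2 lie below the array medians, where its size of change depends on the constant added.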
